A study of Mus musculus with 6 samples.

Results

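The interferon response genes described here are 35 genes that cells switch on when an interferon binds its receptor. They were matched by symbol to the platform's probe table, and 33 of the 35 were found, with 57 probe sets, among 18193 genes and 45101 probe sets in the deposited table. The only listed probe set for Isg15 is assigned to several genes and is given no value, and Ifi44 was not analysed here. Of the 57 probe sets 54 lay above the threshold for dim signals (a mean log2 signal of 5.96), so each of the 33 genes was tested through at least 1 probe set. The remaining 3, 2 of Rsad2 and 1 of Sp100, were dim.

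RNA came from 2T3 cells, a mouse pre-osteoblast line from the calvaria that is immortalised with a viral T antigen, at passages 8 to 10. The static group (3 samples) and the rotated group (3 samples) were both kept for 3 days, the second in the rotating wall vessel, a turning fluid-filled chamber used as a ground-based model of microgravity. Apart from this T antigen, which both groups share, the labels name no transgene or drug treatment for either group, and both come from 1 line. Each sample was hybridised to 1 Affymetrix array. No label ties the samples to separate cultures. The p-values therefore reflect the scatter of these arrays, part of which may be technical, and in bulk RNA fewer cells of a type and less RNA per cell cannot be told apart. For static 2 and static 3 another label names simulated microgravity; their titles say static and were followed, and R in the other titles was read as rotated.

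Type I interferons bind the receptor chains encoded by Ifnar1 and Ifnar2, and the Janus kinases then phosphorylate STAT proteins. STAT2 joins IRF9 in the complex ISGF3, which binds interferon-stimulated response elements (ISREs) before many antiviral genes, whereas interferon gamma signals through its own receptor to gamma-activated sites (GAS). IRF7 amplifies the response, and USP18 restrains it at the receptor. Cells of the mesenchymal lineage, osteoblasts included, can make and answer type I interferon.

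The letters of these elements can be read in the members' own promoters. RefSeq windows around the transcription start (GRCm38.p6) were given for 28 of the 35 members. The ISRE core (GAAA, any 2 bases, GAAA), searched on both strands with overlapping matches allowed, occurred in the windows of 15 of these 28 genes (53.6%), and in 3.99% of 27025 genes with a window of that length. The GAS core TTCNNNGAA occurred in 9 of the 28 (32.1%) and in 9.55% of all genes. A match describes the letters and is no measured site, and a GAS match can overlap an ISRE match, as it does before Bst2. The 6 stretches below end at the base before the start. They were chosen because they hold ISRE cores, shown in capitals, ahead of genes whose values follow. A core on the other strand reads as its reverse complement. Coordinates are chr19:34640729-34640888 (plus strand) for Ifit1, chr19:34583369-34583528 (plus) for Ifit3, chr11:58199396-58199555 (plus) for Igtp, chr11:48871421-48871580 (minus) for Irgm1, chr8:71537473-71537632 (minus) for Bst2 and chr7:140955962-140956121 (minus) for Ifitm2.
Ifit1: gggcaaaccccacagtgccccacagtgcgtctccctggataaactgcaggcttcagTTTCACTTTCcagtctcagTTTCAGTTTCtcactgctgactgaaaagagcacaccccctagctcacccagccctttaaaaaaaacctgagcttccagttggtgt
Ifit3: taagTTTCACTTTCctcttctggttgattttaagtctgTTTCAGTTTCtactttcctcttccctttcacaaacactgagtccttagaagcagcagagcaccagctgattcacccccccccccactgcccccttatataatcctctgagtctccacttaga
Igtp: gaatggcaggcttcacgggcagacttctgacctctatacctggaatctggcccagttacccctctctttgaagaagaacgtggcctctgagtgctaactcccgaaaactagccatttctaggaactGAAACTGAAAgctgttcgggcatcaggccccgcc
Irgm1: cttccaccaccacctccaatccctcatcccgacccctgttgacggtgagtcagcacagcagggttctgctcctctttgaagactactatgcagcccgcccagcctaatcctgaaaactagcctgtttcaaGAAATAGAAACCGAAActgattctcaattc
Bst2: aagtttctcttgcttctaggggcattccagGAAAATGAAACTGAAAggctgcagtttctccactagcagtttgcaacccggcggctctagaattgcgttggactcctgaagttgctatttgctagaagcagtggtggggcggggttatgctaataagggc
Ifitm2: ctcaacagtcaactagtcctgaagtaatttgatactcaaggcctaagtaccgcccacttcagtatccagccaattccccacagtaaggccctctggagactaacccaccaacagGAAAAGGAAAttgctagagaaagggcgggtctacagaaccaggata

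The cores lie close to the start. Counted from the start, with the base before it as -1, they begin at -104 and -85 in Ifit1 and at -156 and -122 in Ifit3, all on the strand opposite to the gene. In Igtp, Irgm1, Bst2 and Ifitm2 they lie on the gene's strand, and in Irgm1 and Bst2 a pair of cores overlaps. Gbp2, Gbp3, Stat2, Rsad2, Ifih1, Ddx58, Eif2ak2 and Ifitm3 also held the core somewhere in their windows.

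Across the 33 genes the rotated and static samples overlapped for every gene but Samhd1, and arrays of one group differed widely. At an adjusted p under 0.05 (limma with Benjamini-Hochberg adjustment) 0 of the 33 genes and 0 of 27022 tested probe sets (0%) were called. Without adjustment limma gave 0 of the 33 genes, each read through its brightest probe set, a p under 0.05, against 3.74% of 12554 tested genes lower and 4.49% higher in the rotated samples, and 2227 probe sets (8.24%) in both directions. The smallest adjusted p among the members was 0.639. On the log2 scale 22 genes had a lower and 11 a higher mean in the rotated samples, where 46.7% of all tested genes had a lower one. The members' median difference was -0.11 (log2 rotated minus static), beside 0.03 for all tested genes. That split moved with the scaling between arrays: 19 of 33 were lower with the values as deposited and 15 of 33 with median centring, which shifts the median of all genes to 0.13. Relative to the median of all genes the members stood at -0.14 with quantile normalization and at -0.07 with the values as deposited. Median centring shifts each array by 1 constant, so it cannot change that second value. In 1 gene, Samhd1, all rotated values lay below all static ones (7.11% of tested genes), and in 0 members all lay above (8.3%).

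The level of the list on each array shows where the variation lay. Measured as the median over the 33 genes against the static mean (log2), static 1, static 2 and static 3 stood at 0.12, -0.50 and 0.33. Rotated 1, rotated 2 and rotated 3 stood at 0.69, -0.55 and -0.06. Thus the arrays numbered 2 were the lowest of both groups, and the groups overlapped. For all tested genes the same medians lay between 0.0024 and 0.048. In 25 of the 33 members static 2 and rotated 2 were both the lowest of their group, as in 15.7% of all tested genes. In 20 members rotated 1 was the highest of the 6 arrays (27.6% of all tested genes), and in 19 rotated 2 was the lowest (10.4%). These patterns were picked after the values were seen and carry no test. With median centring 14 members had both arrays numbered 2 lowest (7.37% of all tested genes), and 25 with the values as deposited (16.6%).

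**Figure D1:**
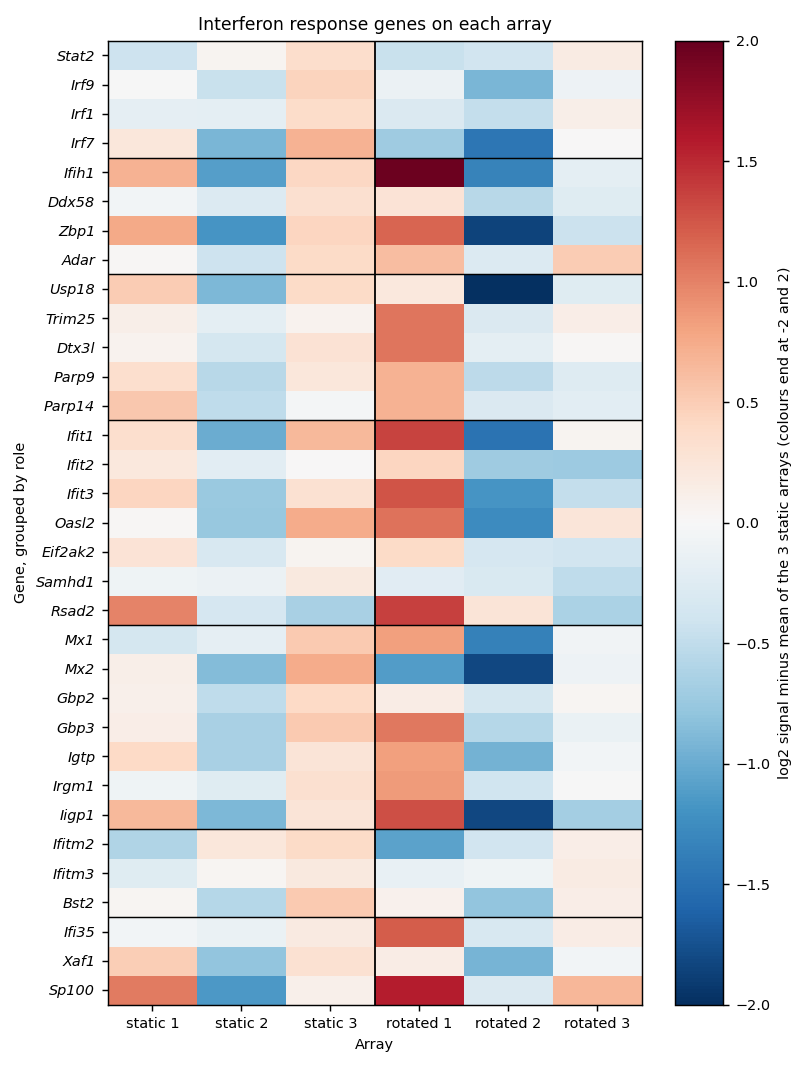
Log2 signal of each of the 33 genes (rows, grouped by role) on each array (columns), as the difference from the mean of the 3 static arrays, with red higher and blue lower. Static 2 and rotated 2 are blue for most genes, and rotated 1 is the reddest column, with Ifih1 at the end of the scale.

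The spread between arrays of one group was correspondingly wide. The within-group SD, pooled over both groups, had a median of 0.57 (log2) over the members and 0.34 over all tested genes, and 30 of the 33 members lay above that second value. Ifih1, which encodes the cytosolic double-stranded RNA sensor MDA5, had the widest spread of the members, with an SD of 1.37, larger than that of 99.7% of tested genes. Zbp1, a sensor of Z-form nucleic acid, followed with 1.29, then the GTPase gene Iigp1 with 1.25 and Ifit1 with 1.18. The narrowest were Samhd1, a dNTP hydrolase that restricts viruses, with 0.16, and the membrane protein gene Ifitm3 with 0.20. Each SD is that of the gene's brightest probe set. Other tested Samhd1 probe sets had SDs of 0.24 to 1.29 in static and 0.17 to 1.02 in rotated samples. The 14 measured members with an ISRE core had a median SD of 0.55 (range 0.20 to 1.37). The 12 with a window but no core had 0.52 (range 0.16 to 1.02), so the ranges overlapped. The 7 without a window, which could not be searched for the core, had 0.84 (range 0.54 to 1.29).

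**Figure D2:**
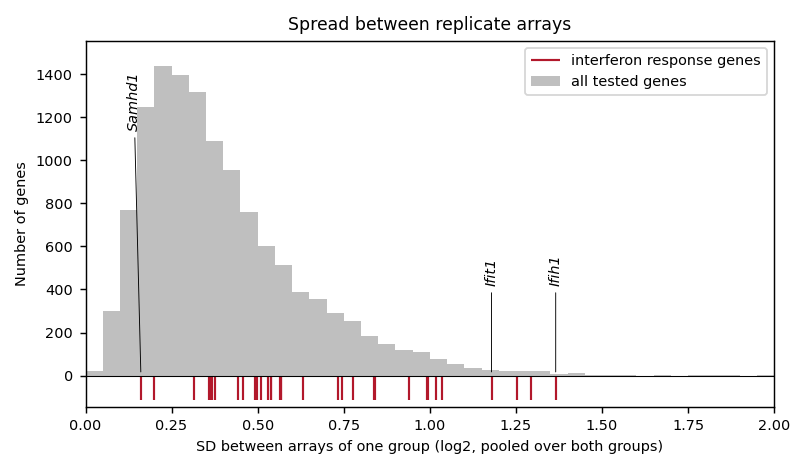
Number of tested genes (grey bars) by the SD between arrays of one group on the log2 scale, with each of the 33 interferon response genes as a red tick below the axis. Most ticks lie to the right of the bulk of the bars, from Samhd1 at 0.16 to Ifih1 at 1.37. Each gene is shown by its brightest probe set.

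Same-numbered arrays deviated together. After removal of each group's mean, the correlation across the 33 members was 0.66 between static 1 and rotated 1, 0.79 for the arrays numbered 2 and 0.73 for those numbered 3. Differently numbered arrays gave -0.60 to -0.05. Across all tested probe sets the same-numbered values were 0.20, 0.31 and 0.33. Genes are not independent replicates, and deviations within a group cancel, so these values describe the arrays and carry no p. The differences were therefore also taken between arrays of the same number. Rotated 1 stood above static 1 in 24 of 33 members (51.9% of all tested genes), with a median of 0.36. Rotated 2 lay below static 2 in 25 (47.1%), with a median of -0.23, and rotated 3 below static 3 in 29 (47.2%), with a median of -0.44. The members thus differed in one direction in the first pair and in the other direction in the others. Higher in the first and lower in both others were 15 members, against 10.1% of all tested genes. With the values as deposited the counts were 23, 24 and 29 (45.1%, 44.8% and 48.8% of all tested genes). With median centring they were 31, 30 and 28, where all tested genes shifted too (68.9%, 61.4% and 37.9%).

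Lower in all 3 pairs were 9 members (19.3% of tested genes): Stat2, Irf9, Irf1, Irf7, Usp18, Samhd1, Mx2, Ifitm2 and Xaf1. Higher in all 3 pairs were Adar, Rsad2 and Sp100 (23.8%), each read through its brightest probe set, although another Adar probe set was lower in all 3. With median centring only Irf7 and Mx2 of the 9, and Sp100 of the 3, kept that pattern, while with the values as deposited all 9 and Adar kept it and Ifitm3 was higher in all 3 pairs. The rotated mean of Mx2 and the static mean of Sp100 lay below the threshold for dim signals.

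**Figure D3:**
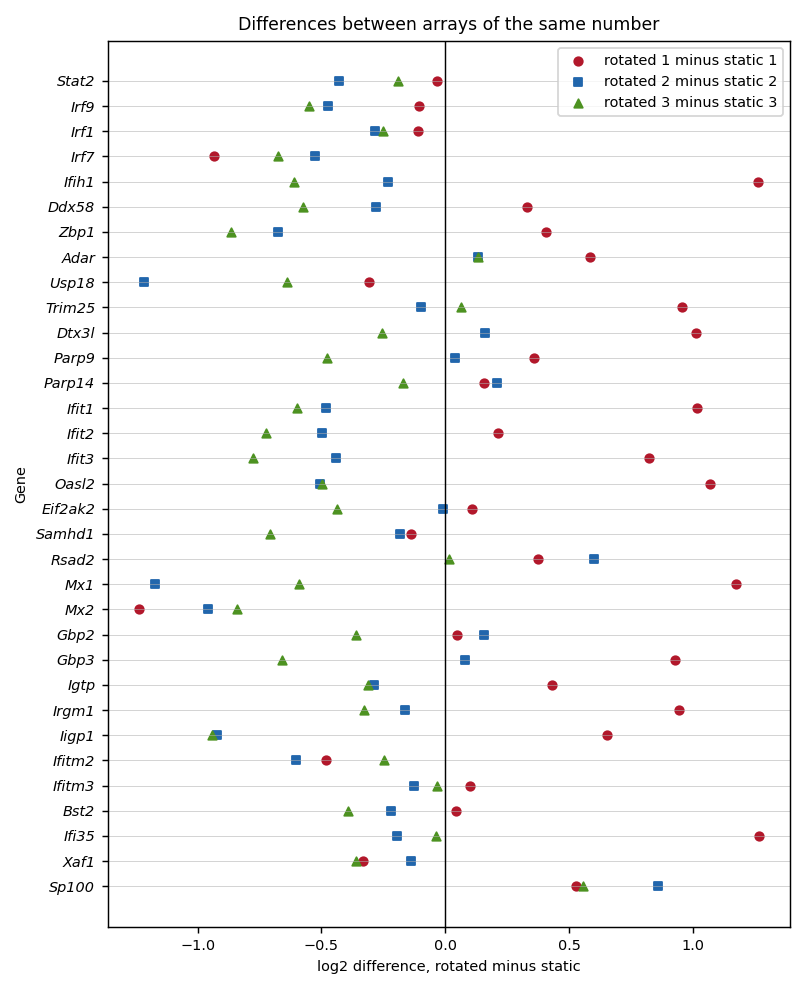
Log2 difference between the rotated and the static array of the same number for each gene, with circles for pair 1, squares for pair 2 and triangles for pair 3. Circles lie right of 0 for 24 genes, while squares lie left for 25 and triangles for 29; Irf7 and Mx2 have all 3 points left of 0.

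The rotated 1 array stood apart in a measure of RNA quality. The ratio of 3' to 5' signal of the actin control probe sets was 3.21 there, 1.57 and 1.48 on the other rotated arrays and between 1.29 and 1.37 on the static ones. The same ratio for GAPDH was 0.875 in rotated 1 and 0.748 to 0.867 elsewhere. Its part in the members' values was not tested. Without rotated 1 the median difference of the list was -0.39, and without rotated 2 it was 0.24. Static 1 had a median deposited signal of 130.1, and the other arrays 70.0 to 88.8. Without static 1 the list's median was 0.0013, without static 2 it was -0.31 and without static 3 it was 0.04, and without static 1 and rotated 1 together it was -0.31. The 8 macrophage and dendritic cell markers, of which 4 passed the threshold for dim signals, summed to a deposited signal of 480.1 to 808.6 in static and 490.0 to 713.3 in rotated samples, with Ptprc, Itgam, Tyrobp and Aif1 dim. Of 7 lymphocyte markers only Cd8a passed that threshold, and the sums were 163.4 to 499.0 and 166.9 to 223.7. The lowest static and rotated sums came from static 3 and rotated 2 for the macrophage list, and from static 2 and rotated 3 for the lymphocyte list. The part of these cells in the members' values was not tested. Of 5 endothelial markers 1 passed, with sums of 177.7 to 281.6 and 107.0 to 237.1, and of 5 epithelial markers 3 passed, with sums of 331.2 to 663.9 and 218.3 to 365.3. For the macrophage, lymphocyte, endothelial and epithelial lists alike, the highest sum came from static 1. The 7 osteoblast markers with a probe set all passed, with sums of 35907.5 to 40217.2 and 25912.3 to 33839.7. In 4 of these, Col1a1, Col1a2, Sp7 and Dlx5, the rotated mean was lower at an unadjusted p under 0.05 in limma (3.74% of all tested genes). Their adjusted p lay between 0.593 and 0.606. Other probe sets stood at -0.20 for Col1a1 and at -0.64 and -0.29 for Col1a2. In pairs 1, 2 and 3 the differences were -1.66, -0.46 and -0.24 for Col1a1 and -1.82, -0.92 and -0.50 for Dlx5.

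When the replicate number entered the limma fit as a block, the standard errors of all 33 members shrank. The differences cannot change in this balanced design. The numbers were taken as pairs because same-numbered arrays deviated together in these data, so the smaller errors give that pairing no support. With the block 4 of the 33 genes had an unadjusted p under 0.05 in limma, all lower in the rotated samples, and 0 higher, beside 6.75% of tested genes lower and 8.22% higher. With adjustment 0 members passed, the smallest adjusted p being 0.255, and 0.0074% of the 27022 probe sets were called. The 4 genes were Irf7, Ifitm2, Usp18 and Mx2. Of these, Mx2 passed the threshold for dim signals only through its static signal, since its rotated mean of 5.65 lay below 5.96. With array weights in the limma fit, 14 members were lower and 0 higher at an unadjusted p under 0.05 (8.09% and 9.77% of all tested genes), 0 passed after adjustment, and the list's median was -0.56. That fit gave the largest weights to static 3 and rotated 2, the static array with the highest and the rotated array with the lowest list level. In the fit without a block all 4 differences moved by over 1.5 times when 1 sample was left out. These fits leave 1 array without its partner, so they cannot show how stable the blocked differences are. Irf7 ran from -1.17 (without static 2) to -0.35 (without rotated 2), and Usp18 from -1.18 (without rotated 1) to -0.02 (without rotated 2). Mx2 ran from -1.47 (without rotated 3) to -0.60 (without rotated 2), and Ifitm2 from -0.74 (without static 1) to -0.13 (without rotated 1).

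**Figure D4:**
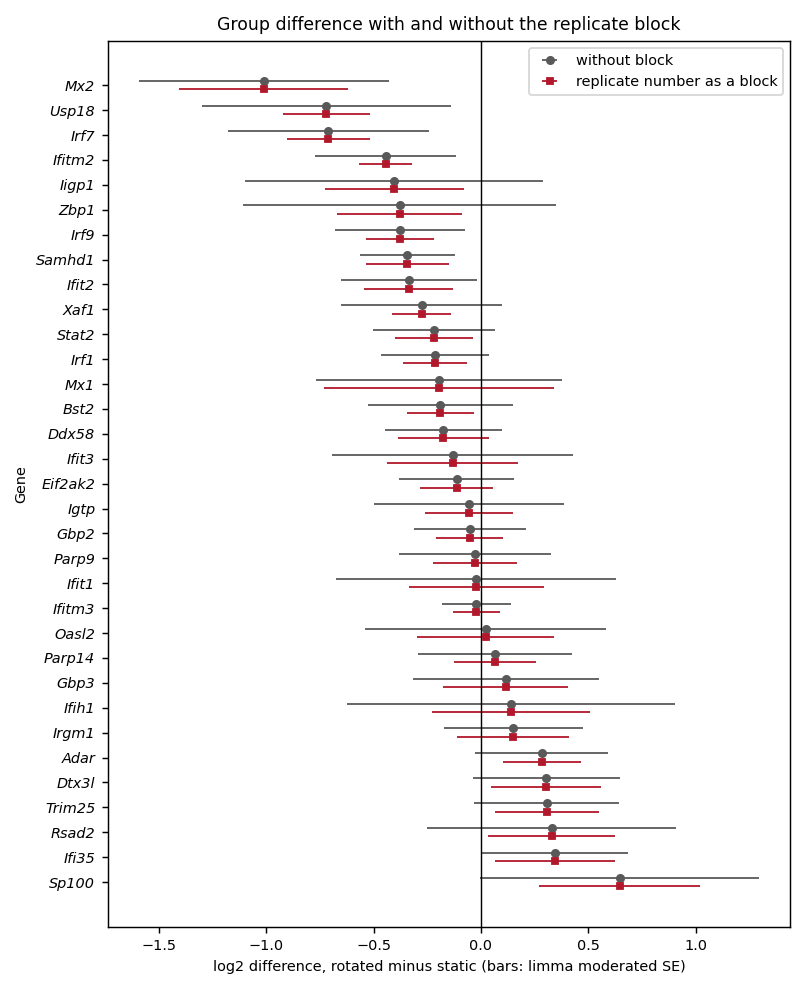
Log2 difference between rotated and static means for each gene, with limma's moderated standard error from the fit without a block (grey circles) and with the replicate number as a block (red squares), n = 3 per group. The 4 genes lowest on the scale, Mx2, Usp18, Irf7 and Ifitm2, are those with an unadjusted p under 0.05 in the blocked fit. The rotated mean of Mx2 lay below the threshold for dim signals.

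Among the transcription factors, all 4 measured genes had a lower rotated mean under each of the 3 scalings, without passing the test. Irf7, the amplifier of type I interferon production, had log2 signals of 9.54, 8.39 and 10.00 in static 1, 2 and 3 and of 8.60, 7.87 and 9.32 in rotated 1, 2 and 3. Each rotated value lay below its static partner, yet the groups overlapped, since rotated 3 exceeded static 2. The difference was -0.71 ± 0.47 (SE, n = 3 per group), or 1.64-fold lower, with an adjusted p of 0.662 in limma, and ± 0.19 with an adjusted p of 0.255 with the block. Irf9, the DNA-binding subunit of ISGF3, had 11.02, 10.59 and 11.48 in static and 10.92, 10.12 and 10.93 in rotated samples. Static 3 was highest and rotated 2 lowest, and the difference was -0.38 ± 0.30 (limma adjusted p 0.712). Stat2, its partner, differed by -0.22 ± 0.28, and its other probe set by -0.14 ± 0.26. Irf1, a factor induced by interferon gamma and the only one of the 4 with a GAS core in its window, differed by -0.22 ± 0.25.

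The sensors gave some of the widest swings between arrays. Ifih1 had log2 signals of 9.06, 7.26 and 8.77 in static and 10.32, 7.03 and 8.16 in rotated samples, a range of 9.79-fold between rotated 1 and rotated 2. The static values lay wholly inside the rotated range, and the group difference was 0.14 ± 0.76. Zbp1 had 9.44, 7.50 and 9.12 in static and 9.85, 6.83 and 8.25 in rotated samples, again with both arrays numbered 2 lowest (-0.38 ± 0.73). Ddx58, which encodes the RNA sensor RIG-I, varied less and differed by -0.18 ± 0.27. Adar, the double-stranded RNA adenosine deaminase, stood at 9.64, 9.20 and 9.99 in static and at 10.22, 9.33 and 10.12 in rotated samples (0.28 ± 0.31). Another Adar probe set went the other way in value, at -0.71 ± 0.38, and in every pair (-0.88, -0.80 and -0.47). One more stood at 0.45 ± 0.38.

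Among genes of ISG15 conjugation and ubiquitin ligation, Usp18, the protease that removes ISG15, had 11.69, 10.27 and 11.57 in static and 11.38, 9.06 and 10.93 in rotated samples. Rotated 2 stood far below the other arrays. The difference was -0.72 ± 0.58 (limma adjusted p 0.712), or 1.65-fold lower, but -0.02 without rotated 2, and ± 0.20 with the block (adjusted p 0.262). Trim25, a ubiquitin ligase that acts on RIG-I, had 9.65, 9.34 and 9.60 against 10.60, 9.24 and 9.66. Rotated 1 stood well above the static range and rotated 3 just above it, and the difference was 0.31 ± 0.34. A second probe set of Trim25 gave -0.0080 ± 0.31 and a dimmer one -0.38 ± 0.41. Dtx3l, a ubiquitin ligase that pairs with PARP9, differed by 0.31 ± 0.34, and its second probe set by -0.29 ± 0.34; Parp9 stood at -0.03 ± 0.35 and Parp14 at 0.07 ± 0.36. A dimmer probe set of Parp14 gave 1.10 ± 0.47, with an unadjusted p of 0.042 and an adjusted p of 0.606 in limma. Its static mean of 5.89 lay below the threshold of 5.96. It thus passed only through its rotated signal, and the difference is no exact fold.

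The IFIT genes encode proteins that bind viral RNA and block its translation. Ifit1 had log2 signals of 11.59, 10.25 and 11.90 in static and 12.60, 9.77 and 11.30 in rotated samples. The highest and the lowest of the 6 were both rotated, 7.13-fold apart, and the group means differed by -0.02 ± 0.65. Ifit3 had 10.77, 9.61 and 10.64 in static and 11.59, 9.17 and 9.87 in rotated samples, with a difference of -0.13 ± 0.56. Both genes carry the cores printed above. Ifit2 had 11.31, 10.88 and 11.10 against 11.52, 10.38 and 10.37, so that rotated 2 and rotated 3 lay below every static value and rotated 1 above (-0.34 ± 0.32, limma adjusted p 0.748).

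Other antiviral effectors divided by their spread. Oasl2, an oligoadenylate synthetase-like protein gene, had 10.40, 9.62 and 11.12 in static and 11.47, 9.12 and 10.62 in rotated samples (0.02 ± 0.56). Eif2ak2, the kinase PKR that halts translation on double-stranded RNA, differed by -0.11 ± 0.27. Samhd1 had 9.73, 9.70 and 10.02 in static and 9.59, 9.52 and 9.31 in rotated samples. Here the groups did not overlap, and the difference was -0.34 ± 0.22 (1.27-fold lower, limma adjusted p 0.657). Its 4 other tested probe sets were also lower in value, from -0.02 ± 0.47 to -1.17 ± 0.51, the last with an unadjusted p of 0.044 and an adjusted p of 0.606 in limma (0.0035 and 0.226 with the block). Rsad2, the antiviral enzyme viperin, was near the threshold for dim signals, with 7.90, 6.57 and 6.27 against 8.28, 7.17 and 6.28 (0.33 ± 0.58); both arrays numbered 1 were the highest.

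The interferon-induced GTPases act on viral capsids or on the vacuoles of intracellular pathogens. Iigp1 had 11.27, 9.72 and 10.88 in static and 11.92, 8.80 and 9.94 in rotated samples, with an 8.69-fold range and a difference of -0.40 ± 0.69. Igtp had 10.42, 9.38 and 10.30 against 10.86, 9.09 and 9.98, and its group means differed by -0.06 ± 0.44. In both genes the order of the arrays was number 1, number 3, number 2 in each group. Gbp2, a guanylate-binding protein, differed by -0.05 ± 0.26 and its second probe set by 0.18 ± 0.22. Gbp3 stood at 0.12 ± 0.43 and Irgm1 at 0.15 ± 0.32, each with rotated 1 as the highest array. Mx2 had the lowest p of the members, with 6.78, 5.79 and 7.40 in static and 5.54, 4.83 and 6.56 in rotated samples. The differences within pairs 1, 2 and 3 were -1.24, -0.96 and -0.84, so each rotated value lay below its static partner. The difference was -1.01 ± 0.58 (limma adjusted p 0.639), and ± 0.39 with the block (adjusted p 0.320). Its rotated mean of 5.65 lay below the threshold of 5.96, so the difference is no exact fold. Mx1, near the threshold, had 6.01, 6.18 and 6.88 against 7.18, 5.01 and 6.29 (-0.20 ± 0.57). The Mx genes thus parted on rotated 1, where Mx1 was the highest of its 6 values and Mx2 lower than in every static sample.

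Of the membrane restriction factors, which act on virus entry or release, Ifitm2 had 13.66, 14.47 and 14.63 in static and 13.18, 13.87 and 14.38 in rotated samples. Unlike most members, it was lowest on the arrays numbered 1. The difference was -0.44 ± 0.33 (1.36-fold lower, limma adjusted p 0.692), and ± 0.12 with the block (adjusted p 0.258). Ifitm3, its close relative, lay between 14.55 and 15.00 on all 6 arrays, with a difference of -0.02 ± 0.16 that turned to 0.24 with the values as deposited and 0.37 with median centring. Both share an ISRE core in their windows, but whether probes of one also bind the other's transcript was not tested. Bst2, or tetherin, which holds budding virus at the cell surface, had 11.13, 10.51 and 11.62 against 11.18, 10.29 and 11.22 (-0.19 ± 0.34).

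Among the remaining induced genes, Xaf1, a proapoptotic protein gene, had 12.15, 10.88 and 11.96 in static and 11.82, 10.74 and 11.60 in rotated samples, and the difference was -0.28 ± 0.38. Its dimmer probe set stood at 0.64 ± 0.46. Ifi35 was represented by a probe set at 12.11, 12.04 and 12.34 in static and at 13.38, 11.84 and 12.30 in rotated samples (0.35 ± 0.34), high on rotated 1 only. The other Ifi35 probe sets gave -0.47 ± 0.25 and -0.38 ± 0.23, and the second of these did not overlap between the groups. Sp100, a nuclear body protein gene, had 7.00, 4.81 and 6.07 against 7.52, 5.66 and 6.62, higher in every pair but with a static mean of 5.957, below the threshold (0.65 ± 0.65). Of 13 members with several tested probe sets, 9 had probe sets of both signs, so the direction of those genes depends on the probe set.

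The rest of the pathway was followed in 41 listed genes (ligands, receptors, kinases, other factors, sensors and inhibitors), of which 37 had a probe set and 33 were tested. After adjustment 0 of them passed in limma; without adjustment 2 were lower and 1 higher (3.74% and 4.49% of all tested genes), and with the block 4 and 1 (6.75% and 8.22%). With median centring 0 had an unadjusted p under 0.05 in limma. Static 2 and rotated 2 were both lowest in 5 of the 33 (15.7% of all tested genes), and the median within-group SD was 0.35. Read through their brightest probe sets, the genes with the smallest p encode the interferon gamma receptor. Ifngr1, its ligand-binding chain, had 11.09, 11.00 and 10.77 in static and 9.75, 10.21 and 10.32 in rotated samples. Ifngr2, the signalling chain, had 10.77, 10.79 and 11.39 in static and 8.59, 10.15 and 10.56 in rotated samples. In both genes all rotated values lay below all static ones, and rotated 1 was the lowest array. Of the 33 tested pathway genes 3 were wholly lower in this way (7.11% of all tested genes) and 1 wholly higher (8.3%). The differences were -0.86 ± 0.23 for Ifngr1 and -1.21 ± 0.46 for Ifngr2, each with a limma adjusted p of 0.593. A dimmer probe set of Ifngr2 stood at 0.17 ± 0.30. Ifnar2, a chain of the type I receptor, stood at -0.37 ± 0.19, and its groups did not overlap either, while its other probe sets gave -0.34 ± 0.25 and 0.34 ± 0.31. Jak2, a Janus kinase gene, stood at -0.34 ± 0.25 in its brightest probe set. Its other one gave -0.81 ± 0.24 without overlap (limma unadjusted p 0.0080, adjusted p 0.593).

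Ligand transcripts were near or under the threshold for dim signals. Ifnb1, the interferon that fibroblast-like cells make, had a log2 signal of 7.20 in static 1 and between 6.10 and 6.32 on the other 5 arrays, while Ifna2, Ifna4 and Ifng were dim. These signals are too near the threshold to rank the arrays. Static 1 was also the highest array for Ifna1 (7.57). The 10th percentile of its deposited signals was 22.1, against 4.5 to 7.2 on the other arrays. The part of this in its Ifnb1 value was not tested. Among upstream sensors Tlr4, the receptor for bacterial lipopolysaccharide, had 9.24, 10.17 and 10.29 in static and 10.79, 10.61 and 10.39 in rotated samples, and the groups did not overlap (0.69 ± 0.30, limma adjusted p 0.606). Its other tested probe sets stood at 0.11 ± 0.36 and -0.01 ± 0.33. Irf2bp2, a corepressor that binds IRF2, differed by -0.54 ± 0.30, with rotated 1 lowest. On the higher side stood Irf5 at 0.91 ± 0.53, Ptpn2, a phosphatase of STAT proteins, at 0.34 ± 0.22, and Cgas, the cytosolic DNA sensor, at 0.39 ± 0.34. Their other probe sets gave 0.21 for Irf5, 0.16, -0.55 and -0.24 for Ptpn2, and 0.20 for Cgas. Irf5 was near the threshold, with 5.43, 5.89 and 7.10 in static samples.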

How the data were processed

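The table deposited by the authors holds 1 linear intensity per probe set and array, and the values show that each array was scaled to a mean of 500.0 after trimming 2% from each end; the summary software is not given in the sources used here. Values were transformed as log2(value + 16.6), the 20th percentile of all values, quantile-normalized, and filtered at the 40th percentile of mean signal. Differences of dim probe sets are thereby understated. The 64 control probe sets were left out. For genes with several probe sets the brightest over the 6 arrays was used, with symbols updated through RefSeq gene identifiers (GRCm38.p6). Of the 45037 other probe sets 34945 had 1 symbol, 932 several and 9160 none. The rotated and static groups (n = 3 each) were set against each other by limma's two-sided moderated test (version 3.58.1, R 4.3.3), with lmFit, then eBayes and its trend option; the number of arrays limits the precision. On simulated arrays of 27022 probe sets the fit recovered 3.7% of 2-fold and 39.3% of 4-fold changes.

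Same-numbered arrays deviated together over all tested probe sets (correlations 0.20, 0.31 and 0.33, each over 0.1; -0.19 to -0.09 for other pairs), so the numbers were taken to pair the samples, although the labels do not say what they stand for; the fit without a block remained the main one. Members, lists and alternatives were chosen with earlier results of these data known. Named were all members, full values going to those with the smallest p and to the widest-ranging ones (the latter chosen after their values were seen), and up to 4 pathway genes with the smallest p in each direction. Alternatives covered scaling, offset, filter, intensity trend, array weights, the block, several probe sets of a gene and left-out samples.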

Additional observations from a re-analysis of the deposited data

Results flagged for a closer look

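The actin control probe sets, which enter no comparison, gave a 3' over 5' ratio of 3.21 in rotated 1, 1.57 in rotated 2 and 1.48 in rotated 3, each above the highest static value of 1.37. For the GAPDH controls rotated 1 reached 0.8746, above the highest static value of 0.8674.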

How the results depend on the processing

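Under every alternative run, 0 interferon genes passed at an adjusted p under 0.05, and the list's median difference moved by less than the within-group SD of its level (0.54), although it was -0.56 with array weights, its sign turned with median centring (0.05) and it ranged from -0.39 to 0.24 when 1 sample was left out. The number of members with an unadjusted p under 0.05, 0 in the fit without a block, was 4 with the replicate block, 14 with array weights (all lower, where 8.09% of all tested genes were lower and 9.77% higher), 1 without static 1 and rotated 1 together and 0 to 3 when 1 sample was left out. For the rest of the pathway, 3 in that fit, it was 5 with the replicate block, 5 with array weights, 0 with median centring and 2 to 5 when 1 sample was left out. Over all probe sets 2 passed after adjustment with the replicate block and 22 with array weights, where static 3 and rotated 2 had weights of 3.32 and 2.55. The sign turned for Ifi35 (-0.15), Adar (-0.19), Trim25 (-0.070) and Dtx3l (-0.14) with array weights, and for Ifi35 (-0.17) and Trim25 (-0.026) with the mean over probe sets. It also turned without rotated 1, where leaving out 1 sample at a time gave -0.090 to 0.68 for Ifi35, -0.079 to 0.60 for Trim25 and -0.081 to 0.55 for Dtx3l, and for Ifi35 (-0.12), Trim25 (-0.019) and Dtx3l (-0.048) without static 1 and rotated 1. The cause was not tested. The replicate block changed no other call. Signal over background limits Mx1, Mx2, Sp100, Rsad2 and the dimmer Parp14 probe set.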
